A study of Mus musculus with 6 samples.

Results

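The small proline-rich genes Sprr1a, Sprr2a1 and Sprr2a2 were followed in mouse heart tissue 3 days after myocardial infarction (MI). They are 3 of the 17441 genes with a value in any of the 6 libraries. They were taken by symbol and chosen by their FPKM values in these same libraries, for being higher after MI and higher again under the Card9 KO label. Their values in these comparisons are therefore a description and carry no test. Sprr2a1 and Sprr2a2 held identical values in every library, count as 1 measurement, and are called Sprr2a from here on.

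The RNA-seq libraries form 3 groups of 2, all labelled as male mice 12 weeks old. WT sham had the operation without ligation, WT MI had the left coronary artery tied, and Card9 KO MI was labelled as the same ligation in mice without Card9, an adaptor protein of myeloid cells that relays signals from fungal sensors. By the study's methods the strains share a C57BL/6 background, and tissue was taken from under the tie. A Card9 KO group with sham surgery was not analysed here, so the KO label is seen only with MI. Card9 itself was not lower under that label. Values are FPKM, fragments scaled by gene length and by the library's own total. Card9 was at 0.99 and 1.03 FPKM in WT sham, reached 3.39 and 5.08 with MI in WT mice, and stood at 9.85 and 6.94 under the KO label (log2 difference from WT MI 0.85 ± 0.23 SE, limma adjusted p = 0.11). Every direction between the MI groups therefore rests on the label. The files gave no read counts. From the spacing of the lowest values, the libraries were estimated to hold 3003291 to 4257997 fragments. In whole tissue, fewer cells of a type and less RNA per cell cannot be told apart.

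Small proline-rich proteins are known from stratified epithelia such as skin. There transglutaminases cross-link them to loricrin, involucrin and each other, which builds the cornified envelope under the cell membrane. Their genes lie side by side in the epidermal differentiation complex with those partners, with late cornified envelope genes and with S100 calcium-binding proteins. Sprr1a is also known outside skin. It is induced in cardiomyocytes by cytokines that signal through the receptor gp130 and in peripheral neurons after axon injury. Sprr2a is induced in gut and bile duct epithelium under stress and is known as a STAT3 target.

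The coding sequences are shown because they make the family's name visible. Read from the mm9 genome with the GENCODE annotation of that build, 5′ to 3′ on the coding strand and without the stop codon, they carry a proline codon (CCN, in capitals) at 46 of 144 codons in Sprr1a and 26 of 83 in Sprr2a1. Sprr1a is coded at chr3:92288183-92288614 on the minus strand, of which the first 96 codons are printed (chr3:92288327-92288614), and Sprr2a1 at chr3:92023014-92023262 on the plus strand, each in 1 exon.
Sprr1a coding, first 96 codons: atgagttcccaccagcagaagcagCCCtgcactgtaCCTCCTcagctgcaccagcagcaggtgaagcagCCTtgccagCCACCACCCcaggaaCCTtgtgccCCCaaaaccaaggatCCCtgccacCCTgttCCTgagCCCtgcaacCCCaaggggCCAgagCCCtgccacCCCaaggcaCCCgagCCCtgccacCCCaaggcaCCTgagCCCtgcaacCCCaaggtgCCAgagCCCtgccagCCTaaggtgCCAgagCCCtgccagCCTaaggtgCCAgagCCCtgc
Sprr2a1 coding: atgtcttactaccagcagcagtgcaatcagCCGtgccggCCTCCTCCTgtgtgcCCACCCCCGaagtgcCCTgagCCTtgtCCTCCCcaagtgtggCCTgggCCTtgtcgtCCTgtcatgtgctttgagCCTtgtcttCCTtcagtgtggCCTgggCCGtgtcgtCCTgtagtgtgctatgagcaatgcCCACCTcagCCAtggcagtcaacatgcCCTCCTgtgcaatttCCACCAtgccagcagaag

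Proline codons made up 31.9% of the Sprr1a codons and 31.3% of those of Sprr2a1. Each sequence is a run of short repeats. Slid along itself, Sprr1a matched best at a shift of 8 codons, where 63.0% of bases were the same, and Sprr2a1 at a shift of 9 codons with 50%. Between the 2 members the coding sequences differ by 230 edits, which is an identity of 46.76% of the longer one. Since they are 432 and 249 bases long, the gap in length counts as difference in this measure. By the same measure the nearest relative of Sprr1a is Sprr1b, at 79.08%. The coding sequence of Sprr2a2 at chr3:92057827-92058075 differs from that of Sprr2a1 at 0 bases, and that of one more copy, Sprr2a3, at 3 bases.

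This likeness decides what the values can stand for. Of the 3492 stretches of 50 bases in the longest Sprr2a1 transcript, 97.1% occur also in another gene's transcript, shared with Sprr2a2, Sprr2a3 or Sprr2b. In the short form of Sprr2a2 it is 100% of 673 stretches. In the Sprr1a transcript, 802 bases long, 0 of 753 stretches occur in a protein-coding transcript of another gene. Only exact matches to such transcripts were searched, not the rest of the genome. Among these transcripts reads of Sprr1a can be placed, whereas reads of the Sprr2a copies cannot be told apart. Among the 14446 genes above 0 in at least 5 libraries, 19 carried the same values as another gene throughout, and Sprr2a1 and Sprr2a2 are a pair of that kind. Sprr2a3 was not listed in any library. How the counting shared such reads is not given in the sources used here.

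The 250 bases upstream of the annotated start are shown for the members and for Sprr2g, the only other Sprr gene that passed the filter on low values, because the order of the groups was not the same in the 3 genes. Capitals mark matches on either strand to 7 short motifs. They are the AP-1 motif TGANTCA, the ATF/CRE motif TGACNTCA, the octamer ATTTGCAT, the TATA box TATAAA, a STAT motif TTCNNNGAA, an NF-kB motif and an interferon response motif (ISRE), and no 2 matches in these windows overlap. Sprr1a is read at chr3:92289817-92290066 on the minus strand, Sprr2a1 at chr3:92019507-92019756 and Sprr2g at chr3:92177587-92177836 on the plus strand, all in mm9.
Sprr1a upstream: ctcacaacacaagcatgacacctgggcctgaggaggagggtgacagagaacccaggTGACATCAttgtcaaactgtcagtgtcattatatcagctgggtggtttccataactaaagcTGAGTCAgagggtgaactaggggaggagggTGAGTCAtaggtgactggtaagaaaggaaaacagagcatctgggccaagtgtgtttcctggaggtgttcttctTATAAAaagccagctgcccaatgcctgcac
Sprr2a1 upstream: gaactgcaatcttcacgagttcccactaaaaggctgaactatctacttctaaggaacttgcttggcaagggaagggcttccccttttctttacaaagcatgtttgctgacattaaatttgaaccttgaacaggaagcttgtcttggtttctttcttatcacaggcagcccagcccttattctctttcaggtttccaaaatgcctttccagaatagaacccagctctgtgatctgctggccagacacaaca
Sprr2g upstream: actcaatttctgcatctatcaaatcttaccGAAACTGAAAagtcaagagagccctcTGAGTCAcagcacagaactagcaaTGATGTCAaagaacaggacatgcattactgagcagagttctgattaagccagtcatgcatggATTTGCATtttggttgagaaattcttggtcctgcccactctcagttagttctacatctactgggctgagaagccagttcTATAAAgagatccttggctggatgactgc

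The Sprr1a window holds 2 AP-1 matches, at -133 and -103 from the start, an ATF/CRE match at -194 and a TATA box at -30. The window before the outer Sprr2a start holds none of the 7 motifs. The annotation gives a second, inner start of Sprr2a, and a TATA box lies at -29 from it, again with no AP-1 match in 250 bases. The Sprr2g window holds an interferon response match at -220, an AP-1 match at -194, an ATF/CRE match at -170, the octamer at -108 and a TATA box at -29. Over the family, 11 of 16 Sprr genes have an AP-1 match and 9 of 16 the octamer, whereas 6.01% and 1.62% of the 22362 upstream windows of all genes do. In the Sprr2 genes with a match other than Sprr2j-ps, the first AP-1 match lies from -198 to -193 and the octamer from -112 to -108. The 16 genes are therefore not independent of each other, and these shares carry no test. STAT and NF-kB motifs, found in 6.83% and 1.38% of all windows, were in 0 of 16, which says little at shares this low. A match is only a match of letters, and these data hold no measure of binding.

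Sprr1a was listed at 4.03 and 5.88 FPKM after sham surgery, at 305.91 and 413.09 after MI in WT mice, and at 1217.72 and 1098.05 under the Card9 KO label. The lowest library of each group lies far above the highest library of the group before it, so the 3 groups do not overlap. The group means were 4.96 ± 1.31, 359.5 ± 75.8 and 1158 ± 84.6 FPKM (SD, n = 2 each). The WT MI mean was 72.6 times the WT sham mean, and the mean under the KO label was 3.22 times the WT MI mean.

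These levels took Sprr1a from the middle of the list of genes to near its top. Ranked by FPKM within a library, it stood at 8676 and 7322 in WT sham, at 240 and 171 in WT MI, and at 36 in both KO-labelled ones. With the estimated depth and its transcript length, the FPKM values correspond to 10.2 and 14.2 estimated fragments after sham surgery, 982 and 1298 after MI, and 4158 and 3598 under the KO label. The sham level is thus the least precise of the 3, since it rests on a few fragments, and these estimates cover counting error only.

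Sprr2a was listed at 0.31 FPKM in WT sham replicate 1 and at 0 in replicate 2, at 0.93 and 1.14 in WT MI, and at 18.27 and 18.52 under the KO label. The WT sham and WT MI libraries all sit near the lower end of what can be measured, and the libraries labelled Card9 KO MI stand apart from them. The means were 0.155 ± 0.219, 1.04 ± 0.148 and 18.4 ± 0.177 FPKM (SD, n = 2 each), and the KO-labelled mean was 17.8 times the WT MI mean. In rank within the library, Sprr2a was 12631 and 12399 in WT MI and 4049 and 3883 under the KO label.

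**Figure D1:**
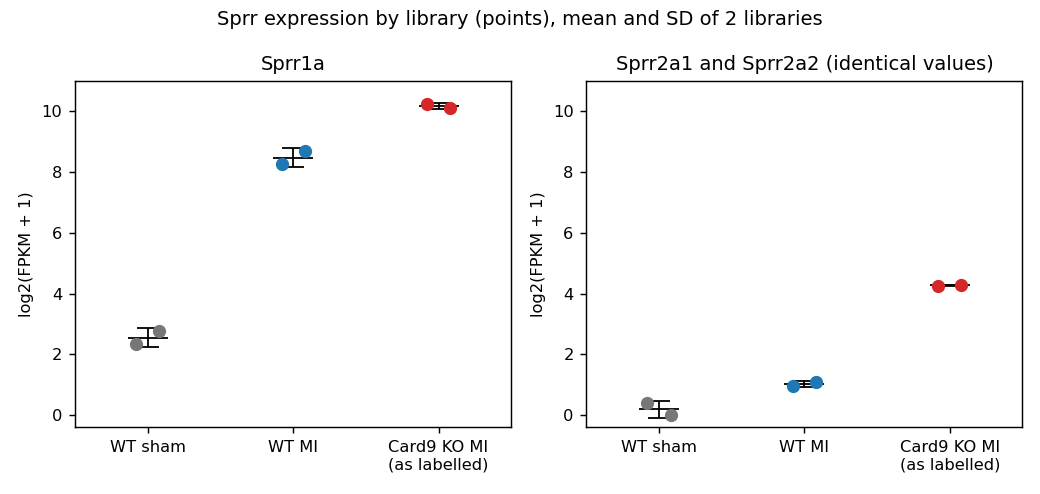
Expression of Sprr1a (left) and of Sprr2a1 and Sprr2a2 (right) as log2(FPKM + 1), with a point for each library and the mean and SD of the 2 libraries of a group. Sprr1a is at 2.33 and 2.78 after sham surgery, 8.26 and 8.69 after MI in WT mice and 10.25 and 10.10 under the Card9 KO MI label, whereas Sprr2a stays at or under 1.10 in WT sham and WT MI and is at 4.27 and 4.29 under the label.

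The number of Sprr2a fragments depends on which annotated transcript the values were divided by, which is not given in the sources used here. With the short form of 722 bases, the WT MI libraries hold about 2.69 and 3.23 fragments and the KO-labelled libraries 56.2 and 54.6. With the long form of 3541 bases, they hold about 13.2 and 15.8, and 275 and 268. These numbers are estimates, not counted reads. No fold against WT sham is given for Sprr2a, because WT sham replicate 1 holds 0.71 or 3.47 estimated fragments and replicate 2 none.

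The 2 members differ in which comparison holds the larger difference. On the log2(FPKM + 1) scale, which shrinks the differences of low genes, Sprr1a differed by 5.92 between WT MI and WT sham and by 1.70 between the KO label and WT MI, and Sprr2a by 0.83 and 3.25. Sprr1a ranks 5 of 13120 tested genes by the first difference and 24 by the second. Sprr2a ranks 2107 by the first and 2 by the second, where its identical copy shares the place. The comparisons share libraries and are not independent of each other. Between the KO label and WT sham, Sprr1a differed by 7.62, rank 1 of all tested genes, and Sprr2a by 4.08, rank 29. The level of Sprr1a, per length, was 329 and 362 times that of Sprr2a in WT MI and 66.7 and 59.3 times under the KO label.

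**Figure D2:**
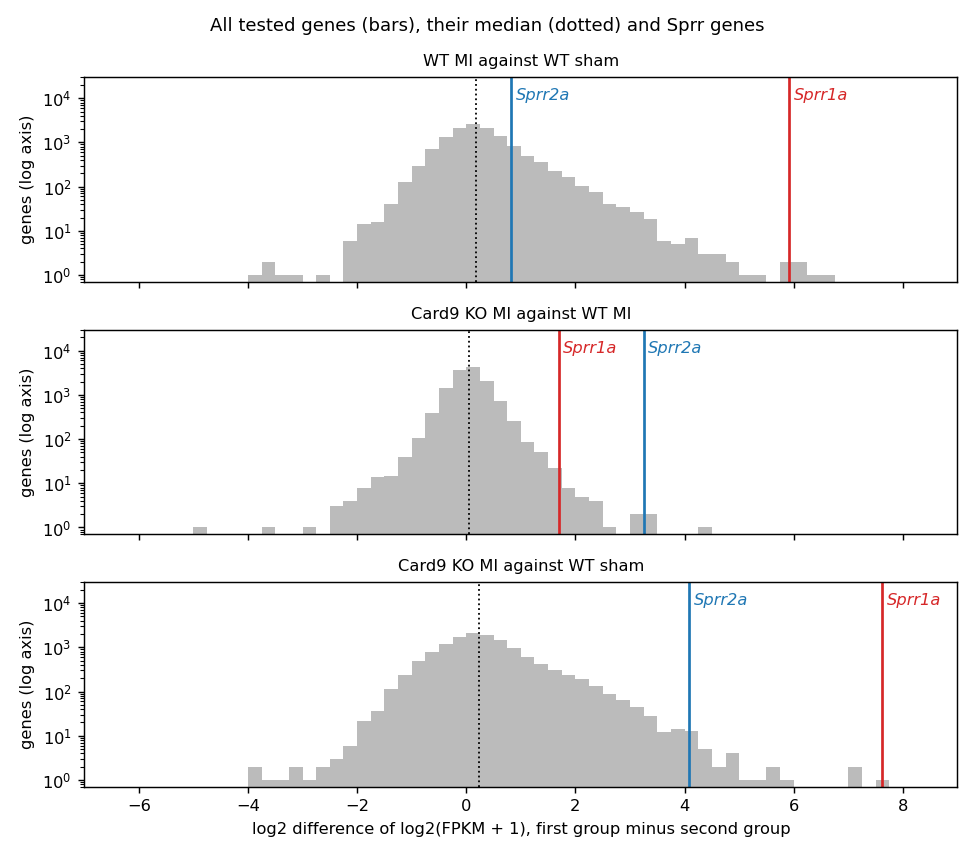
Log2 differences of all 13120 tested genes in the 3 comparisons (bars, number of genes on a log axis), with their median (dotted) and the differences of Sprr1a and Sprr2a. Sprr1a is at 5.92, 1.70 and 7.62 and Sprr2a at 0.83, 3.25 and 4.08 from top to bottom.

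The groups did not overlap for Sprr1a or for Sprr2a in any of the 3 comparisons. Of all tested genes, 48.3% lay higher without overlap in WT MI than in WT sham, 30.8% under the KO label than in WT MI and 51.6% under the KO label than in WT sham, and nothing is read from the members' separation since it chose them. The median of all tested genes was 0.19, 0.04 and 0.24 in the 3 comparisons. Relative to it, Sprr1a differed by 5.74, 1.65 and 7.38 and Sprr2a by 0.64, 3.21 and 3.85. With upper-quartile scaling the median of all genes was -0.03, 0.00 and -0.02, and the members kept their directions. Each of the 4 pairs of 1 library from either group gave the same direction, from 1.41 to 1.99 for Sprr1a and from 3.17 to 3.34 for Sprr2a between the KO label and WT MI. The Sprr2a difference between WT MI and WT sham has no firm size, since it was 2.48 with a pseudocount of 0.1 and 0.23 with a pseudocount of 5.

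The rest of the family was nearly silent. Of the other 13 Sprr genes in the reference table, 10 were not listed in any library, among them Sprr1b, Sprr3 and Sprr4, which lie on either side of Sprr1a. Sprr2f was at 0.85, 0.44 and 0.40 FPKM in the WT MI libraries and KO MI replicate 1, and at 0 in the other 3. Sprr2h was at 0.34 in WT MI replicate 1 and at 0.64 and 0.33 under the KO label. At these levels neither passed the filter.

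Sprr2g did pass, and its order of groups was another one. It is a Sprr2 gene that shares none of its 601 stretches of 50 bases with a protein-coding transcript of another gene. Sprr2g was listed at 0 in both WT sham libraries and at 3.55 and 3.66 FPKM in WT MI. Under the KO label it was at 1.11 and 0.77. The WT MI libraries were the highest and the groups did not overlap. Its transcript is 650 bases long, so 1.11 and 0.77 FPKM rest on few fragments, as the Sprr2a values in WT MI do. Sprr2g rose in WT MI over WT sham (log2 difference 2.20, limma adjusted p = 0.0003) and was lower under the KO label than in WT MI (-1.25, adjusted p = 0.047), opposite in sign to Sprr1a and Sprr2a. The second call was lost when any of the 4 MI libraries was left out (adjusted p 0.11 to 0.26) and in 3 further settings, and its direction was kept in all. With pseudocount 1 and a gene at 0 in sham, no fold is given.

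**Figure D3:**
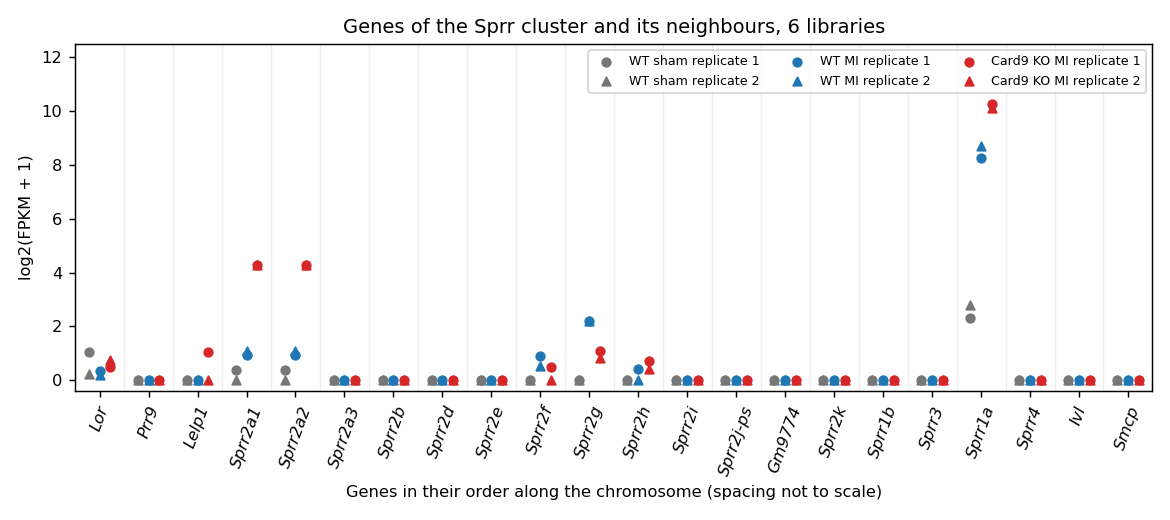
Genes of the Sprr cluster and its neighbours in their order along mouse chromosome 3, as log2(FPKM + 1) in the 6 libraries (circles, replicate 1; triangles, replicate 2). Sprr1a, Sprr2a1 and Sprr2a2 stand out, Sprr2g is the only gene highest in WT MI among those above 1 FPKM in 2 libraries, and most of the genes between them are at 0.

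The neighbours outside the Sprr family were no more active. Of 37 other genes of the epidermal differentiation complex, 31 were not listed, including Ivl (involucrin), Flg (filaggrin) and nearly all late cornified envelope genes. Lor, which codes for loricrin, the main envelope protein of skin, was at 0.14 to 1.06 FPKM, with the highest value in WT sham. Lelp1, next to Sprr2a1, was seen only in KO MI replicate 1, at 1.09, and Lce1f only there as well, at 0.31. Crct1 was the single one to pass the filter. It was at 0 in WT sham, at 6.42 and 6.97 in WT MI, and at 10.72 and 4.89 under the KO label. Crct1 rose in WT MI over WT sham (log2 difference 2.94, limma adjusted p = 0.00035) and did not pass between the MI groups (0.11, adjusted p = 0.88).

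Of the 13 S100 genes of the complex, 12 were listed and 9 tested, while S100a3, S100a7a and S100a14 were at or under 1.06, 0.71 and 0.28 FPKM. Between WT MI and WT sham, 7 rose and 1 fell by limma at an adjusted p under 0.05, where 27.7% of all tested genes rose and 9.39% fell, and the list's median log2 difference was 2.38 against 0.19 over all genes. S100a11 and S100a10, the partners of annexins, went from 97.57 and 99.01 to 484.24 and 549.76 FPKM and from 37.44 and 37.47 to 132.13 and 126.93. S100a8 and S100a9, the calprotectin subunits of neutrophils, rose by 4.22 and 4.75, S100a4 by 4.01 and S100a6 by 2.51. S100a1, the form of heart muscle, fell by 0.66. Between the KO label and WT MI, where 0.816% of all tested genes were higher and 0.587% lower, 0 of 9 passed (2 higher and 3 lower at an unadjusted p under 0.05).

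Of the enzymes and proteins that build or join an envelope, 11 of 14 were listed and 7 tested, of which 5 rose and 1 fell in WT MI against WT sham (27.7% and 9.39% of all tested genes). Tgm2, the widespread tissue transglutaminase, was at 103.01 and 93.25 FPKM in WT sham, at 269.38 and 249.51 in WT MI and at 209.44 and 207.42 under the KO label. The keratinocyte enzymes were low, with Tgm1 at 0 to 1.29 and Tgm3 at or under 0.24. Anxa1 and Anxa2, annexins that bind S100 proteins at membranes, rose by 2.46 and 2.69 on the log2 scale (adjusted p = 0.00072 and 5.5e-05). Dsp, desmoplakin of the desmosome, which links heart muscle cells as well as keratinocytes, fell by 0.38 (adjusted p = 0.019, lost without WT MI replicate 2 or either WT sham library, up to 0.13), whereas its partner Jup differed by 0.16 (adjusted p = 0.25). Between the MI groups 0 of 7 passed (1 higher and 2 lower at an unadjusted p under 0.05).

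The gp130 ligands were low in level. All 8 were listed and 6 tested, with 4 risen and 0 fallen in WT MI against WT sham (5 and 1 at an unadjusted p under 0.05), beside 27.7% and 9.39% of all tested genes. Il6 was at 0 in WT sham, at 5.08 and 5.94 FPKM in WT MI and at 4.34 and 6.79 under the KO label, so the MI groups overlap. Osm, a macrophage and neutrophil product, was at 0 in both sham libraries, at 1.56 and 2.27 in WT MI and at 2.44 and 1.91 under the label. Lif was at 0.41 and 0.26, at 1.36 and 1.39, and at 3.52 and 3.16, which is the order of groups that Sprr1a and Sprr2a show. Its difference between the KO label and WT MI was 0.87 and did not pass (adjusted p = 0.089), and 0 of the 6 passed there (1 higher and 0 lower at an unadjusted p under 0.05). Clcf1 rose by 1.31 in WT MI (adjusted p = 0.011, 0.064 without WT MI replicate 2 and 0.055 without WT sham replicate 1), while Il11 and Ctf1 (cardiotrophin 1) differed by 0.85 and -0.54 (adjusted p = 0.072 and 0.10).

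Of 12 receptors and signalling genes, all tested, 4 rose and 2 fell in WT MI against WT sham, beside 27.7% and 9.39% of all tested genes. The median was 0.26, close to the 0.19 of all genes. Osmr, the oncostatin M receptor, had the largest difference, from 7.25 and 5.87 FPKM to 20.40 and 20.35 (log2 difference 1.51, adjusted p = 0.00017), and was at 19.26 and 19.42 under the KO label. Stat3, the transcription factor of the pathway, rose by 0.69 and Il6st, which codes for gp130, by 0.34, of which the latter was 0.09 with upper-quartile scaling (adjusted p = 0.50). Il11ra1 and Ptpn11, the phosphatase SHP2, fell by 0.33 and 0.39. The Il6st call was lost without either WT MI library or WT sham replicate 1 (adjusted p up to 0.14), that of Il11ra1 without any of the 4 WT libraries (up to 0.14) and that of Ptpn11 without either WT MI library or WT sham replicate 2 (up to 0.075). Between the MI groups 0 of 12 passed (1 higher and 0 lower at an unadjusted p under 0.05).

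Genes known as targets or feedback of STAT3 mostly rose with MI. Of 21, 18 were listed and 16 tested. After MI in WT mice 13 rose and 0 fell (14 and 0 at an unadjusted p under 0.05), with a median of 1.6. Among all tested genes 27.7% rose and 9.39% fell, with a median of 0.19. Timp1, an inhibitor of metalloproteinases, was at 5.36 and 5.24 FPKM in WT sham, at 299.16 and 253.84 in WT MI and at 239.26 and 196.87 under the KO label. Lcn2 (lipocalin 2) was at 1.90 and 3.17, at 268.76 and 203.93, and at 6.98 and 7.27. Under the KO label 3 of the 16 were lower than in WT MI and 0 higher, beside 0.587% lower and 0.816% higher among all tested genes. The 3 lower genes were Lcn2 (log2 difference -4.86, adjusted p = 0.0002), the acute-phase gene Serpina3n (-1.88, adjusted p = 0.0042) and the metallothionein gene Mt1 (-1.14, adjusted p = 0.005). Without WT MI replicate 1 the Mt1 call was lost, at a difference of -1.16. At an unadjusted p under 0.05 it was 5 lower and 0 higher. Mt2 differed by -1.70 (adjusted p = 0.052). Of the 16 genes 13 did not pass between the MI groups, and the median of the list was -0.16. Sprr1a and Sprr2a differed by 1.70 and 3.25, and a link between them and these genes was not tested.

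Among AP-1, ETS and related factors, known to bind the promoters of Sprr genes in keratinocytes, all 25 were listed and 22 tested. With MI 12 rose and 2 fell, beside 27.7% risen and 9.39% fallen among all tested genes. Fosl1, the AP-1 subunit most tied to keratinocyte genes, was at 0.56 and 0.58 FPKM in WT sham, at 6.99 and 6.14 in WT MI and at 3.97 and 3.28 under the KO label. Junb rose by 1.30 (adjusted p = 0.0078, and 0.053 without WT MI replicate 1), Spi1 (PU.1 of myeloid cells) by 2.19 and Etv4 by 1.22 (0.055 without WT MI replicate 1). Jun fell by 0.45 and Klf4 by 0.41, with adjusted p of 0.032 and 0.044 that were lost without either WT MI library or WT sham replicate 1 (up to 0.16 and 0.21). The epithelial factors Elf3, Ehf and Pou2f3 were at or under 0.37 in every library. Under the KO label 0 of 22 passed against WT MI (5 higher and 1 lower at an unadjusted p under 0.05). Fosl1 differed there by -0.71 (limma adjusted p = 0.10). Jun differed by 0.70 (adjusted p = 0.057), from 23.43 and 23.23 FPKM in WT MI to 40.92 and 36.06 under the KO label.

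Sprr1a is known from injured neurons, and 18 of 20 genes of that response were listed and 15 tested. Of these 11 rose and 2 fell in WT MI against WT sham, with a median of 1.41 (all tested genes, 27.7% risen, 9.39% fallen and a median of 0.19). Arg1 (arginase 1, also of macrophages) was at 0.64 and 0.45 FPKM in WT sham, at 90.27 and 86.30 in WT MI, and at 47.43 and 44.34 under the KO label. Basp1, a growth cone protein, rose by 3.10, and the small heat shock gene Hspb1 by 0.78. Gap43 and Sox11, the usual companions of Sprr1a in regenerating neurons, were at or under 1.60 and 0.11. Gadd45a fell by 0.77 (adjusted p = 0.019, and 0.12 without WT MI replicate 1 or 0.11 without WT sham replicate 2). Under the KO label Arg1 was lower than in WT MI (-0.93, adjusted p = 0.021, lost without any of the 4 MI libraries, up to 0.18), and 0 were higher (5 higher and 3 lower at an unadjusted p under 0.05).

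Counting each gene once, 85 genes of these lists were tested. Against WT sham, 55 rose and 7 fell in WT MI, where the shares of all tested genes were 27.7% and 9.39%. Under the KO label against WT MI 0 were higher and 5 lower (12 and 15 at an unadjusted p under 0.05), beside 0.816% and 0.587% of all tested genes. The 0 depended on the settings, with 2 higher and 6 lower at a mean FPKM of at least 5 and with quantile normalization, 3 and 7 with a pseudocount of 5, and 1 and 6 when only the groups compared were fitted. In the comparison of the KO label with WT sham, 56 rose and 6 fell, where 34.8% of all tested genes rose and 14.3% fell. With upper-quartile scaling the lists gave 50 risen and 11 fallen in WT MI against WT sham.

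**Figure D4:**
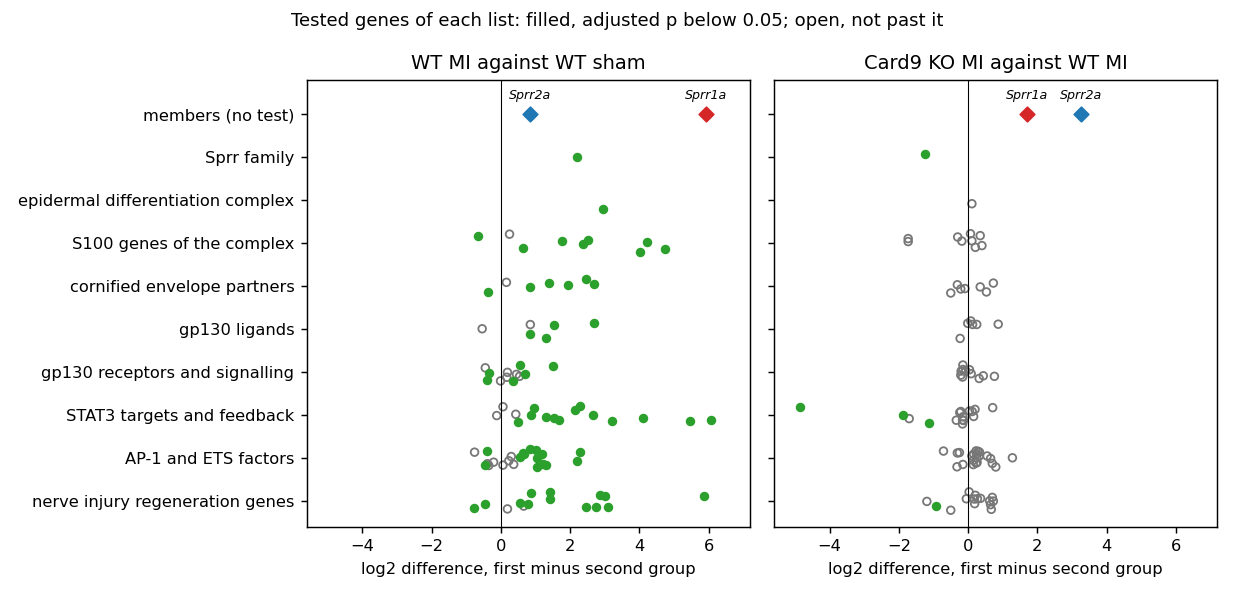
Log2 differences of the tested genes of each list in WT MI against WT sham (left) and under the Card9 KO MI label against WT MI (right), with filled points for limma adjusted p under 0.05 and diamonds for Sprr1a and Sprr2a, which were not tested. On the left 55 genes are filled to the right of 0 (a gene of 2 lists is drawn in each), and on the right the 5 filled genes lie to the left with the settings drawn (other settings also called up to 3 higher), with Sprr1a and Sprr2a at 1.70 and 3.25.

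Markers of the cells that such tissue can hold were read beside these values, and their part in the Sprr levels was not tested. Counts of called markers stand beside 27.7% risen and 9.39% fallen among all tested genes in WT MI against WT sham. Between the KO label and WT MI the shares were 0.816% higher and 0.587% lower. The defining keratins of squamous epithelium Krt5, Krt14, Krt15, Krt1, Krt4, Krt13 and Krt6a and the gene Epcam were not listed in any library, and 7 of 15 markers were. Their summed level was 3.53 to 4.02 FPKM in WT sham, 5.62 to 6.15 in WT MI and 13.5 to 15.2 under the KO label. Most of it was Sfn (stratifin), also expressed outside epithelia, at 2.36 and 2.05, 3.23 and 4.74, and 11.27 and 12.94. Sfn was higher under the KO label than in WT MI (log2 difference 1.41, adjusted p = 0.025, lost without any of the 4 MI libraries, up to 0.16). Trp63 was at or under 1.35 and Cdh1 at or under 0.89.

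Mesothelial markers, 11 of 12 listed, summed to 7.22 to 9.65 FPKM in WT sham, 8.87 to 13.6 in WT MI and 14.8 to 15.8 under the KO label. Without Krt18 the sums were 6.31 and 9.41, then 11.9 and 7.77, and lowest under the KO label at 5.96 and 5.41. Krt18, a keratin of simple epithelia, was at 0.91 and 0.24, at 1.78 and 1.10, and at 9.87 and 9.41, an order like that of Sprr2a (KO label against WT MI 2.14, adjusted p = 0.018, lost without any of the 4 MI libraries, up to 0.09). Its partner Krt8 was at or under 0.69 and Krt19 at 2.14 or under. Msln and Upk3b, which define mesothelium, were at or under 0.46 and 1.94 and highest in WT sham. Of the 4 tested mesothelial genes 0 passed in WT MI against WT sham (2 higher and 0 lower at an unadjusted p under 0.05).

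Cardiomyocyte markers, 12 of 12 listed, summed to 71073 to 72554 FPKM in WT sham, 40046 to 41674 in WT MI and 33138 to 38475 under the KO label. Of them 10 fell and 0 rose in WT MI against WT sham, where 9.39% of all tested genes fell and 27.7% rose. Myl2, the ventricular myosin light chain, fell by 1.24 on the log2 scale. Between the KO label and WT MI 0 of 12 passed (0 higher and 5 lower at an unadjusted p under 0.05). The heart muscle label of the tissue thus held in all libraries. Genes of stressed heart muscle moved otherwise, with 8 of 10 risen. Nppa, which codes for atrial natriuretic peptide, was at 325.62 and 78.20 FPKM in WT sham, at 757.55 and 838.11 in WT MI, and at 1841.23 and 1660.66 under the KO label. That is the order that Sprr1a shows, and the difference from WT MI was 1.13 (adjusted p = 0.29). The list did not follow Nppa. Nppb was at 1113.95 and 893.82 in WT MI and at 575.78 and 608.57 under the KO label. Ankrd1 was at 2411.13 and 2489.58, and at 1628.37 and 1421.78. At an unadjusted p under 0.05, 1 of the 10 was higher than in WT MI and 3 lower, with a median of -0.16. Flnc (filamin C) was the only 1 of the 10 called between the MI groups, lower under the KO label (log2 difference -0.82, adjusted p = 0.034, lost without any of the 4 MI libraries, up to 0.23). The WT sham libraries differ widely in this list, with sums of 3819.7 and 1437 FPKM. The sums were 5347 to 5435 in WT MI and 4859 to 5066 under the KO label.

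Fibroblast markers followed the order of groups seen in Sprr1a and Sprr2a in their sum, though not each by itself. All 12 were listed and summed to 547 to 552 FPKM in WT sham, 1625 to 2139 in WT MI and 3396 to 3547 under the KO label. After MI 10 rose and 0 fell, where 27.7% of all tested genes rose and 9.39% fell. Under the KO label 6 of 12 were higher than in WT MI and 0 lower, beside 0.816% and 0.587% of all tested genes. At an unadjusted p under 0.05 it was 8 higher and 1 lower. Pdgfra was at 15.20 and 15.87 FPKM in WT MI and at 10.64 and 10.43 under the KO label. Dcn was at 296.75 and 385.71 in WT MI and at 297.49 and 309.52 under the KO label. Postn (periostin of activated fibroblasts) was at 24.64 and 16.85, at 183.74 and 240.89, and at 625.98 and 627.00 (KO label against WT MI 1.57, adjusted p = 0.016, lost without KO MI replicate 1 or WT MI replicate 1, up to 0.14). Cthrc1 was higher by 1.66 (adjusted p = 0.015, 0.08 and 0.082 without the same libraries). Col1a1 was higher by 1.06 (adjusted p = 0.034, lost without WT MI replicate 1 or either KO-labelled library, up to 0.15).

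Macrophage markers, 12 of 12 listed, summed to 361 to 423 FPKM in WT sham, 1477 to 1881 in WT MI and 2169 to 2993 under the KO label. In WT MI 12 of 12 rose, where 27.7% of all tested genes rose and 9.39% fell. Under the KO label 0 of 12 passed against WT MI (6 higher and 0 lower at an unadjusted p under 0.05). Neutrophil markers, 10 of 12 listed, summed to 5.91 to 8.56, 108 to 253 and 51.5 to 65.0, and 8 of 8 tested rose in WT MI. Under the KO label 1 of the 8 was called lower than in WT MI, Mmp9 (-2.05, adjusted p = 0.045, lost without either KO-labelled library or WT MI replicate 1, up to 0.16). At an unadjusted p under 0.05, 4 of the 8 were lower and 0 higher, with a median of -1.18. The defining neutrophil gene Ly6g was not listed. Endothelial markers, 10 of 10 listed, summed to 873 to 969, 847 to 881 and 1061 to 1062. Of the 10, 2 rose and 1 fell in WT MI, close to the shares of all tested genes. The 2 risen, Pecam1 (0.40) and Vwf (0.43), did not pass with upper-quartile scaling (0.16 and 0.20, adjusted p = 0.31 and 0.23) or quantile normalization (adjusted p = 0.14 and 0.25), and each was lost without 3 of the 4 WT libraries (Pecam1 kept without WT MI replicate 2 and Vwf without WT sham replicate 1, otherwise up to 0.15 and 0.12). Between the KO label and WT MI, 0 of the 10 endothelial genes passed (4 higher and 0 lower at an unadjusted p under 0.05). Schwann cell markers, 10 of 10 listed, summed to 33.4 to 35.9, 60.6 to 60.8 and 59.1 to 65.7. Of 5 tested, 3 rose and 1 fell in WT MI.

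**Figure D5:**
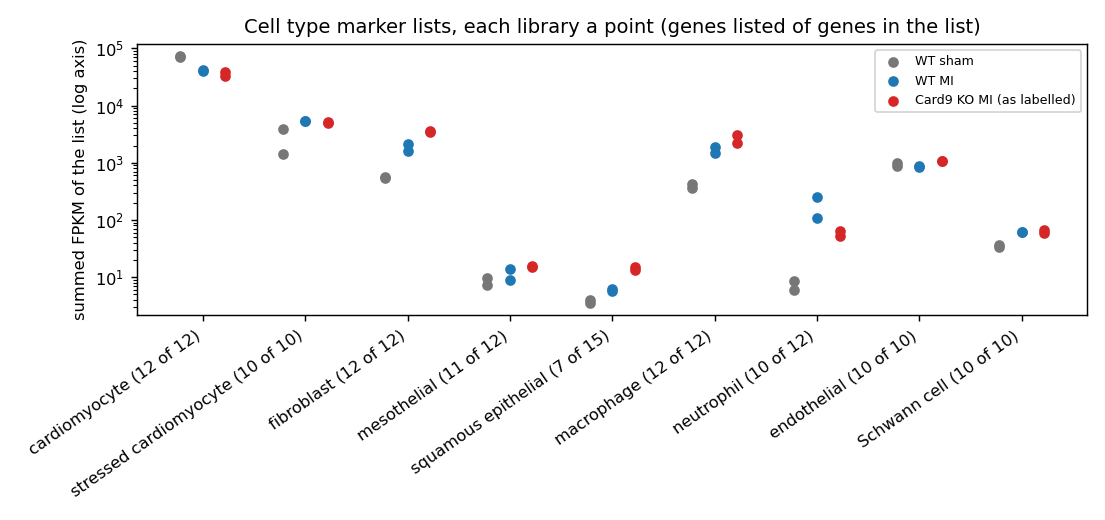
Summed FPKM of each cell type marker list (log axis), with a point for each library, and the number of genes listed of those in the list. The fibroblast (3396 to 3547), macrophage (2169 to 2993), endothelial (1061 to 1062), mesothelial (14.8 to 15.8) and squamous epithelial (13.5 to 15.2) lists are highest under the Card9 KO MI label without overlap, and the neutrophil list is highest in WT MI, at 108 to 253. Without Krt18 the mesothelial sums are lowest under the label, at 5.96 and 5.41. Most of the squamous sum there is Sfn, at 11.27 and 12.94.

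The genes whose pattern over the 6 libraries was most like that of Sprr1a, by Pearson r of log2(FPKM + 1), were Angptl4 (r = 0.9996), Aurkb (0.9991), Crtap (0.9991), Fn1 (0.9989) and Ykt6 (0.9989). With 2 libraries a group, such r are set by 3 group levels and are given as a description. Angptl4, an inhibitor of lipoprotein lipase, was at 6.28 and 7.24 FPKM in WT sham, at 29.72 and 31.76 in WT MI and at 48.31 and 48.81 under the KO label. Fn1 (fibronectin) was at 11.96 and 13.18, at 149.18 and 165.35, and at 360.66 and 283.31. Crtap, which codes for a part of the complex that modifies collagen prolines, went from 16.66 and 18.15 to 41.83 and 43.02 and to 58.35 and 54.55. Aurkb, a mitotic kinase, was at 0.32 and 0.34, at 4.55 and 5.59, and at 8.32 and 7.92. All of them keep the order of groups in every library, at smaller differences than Sprr1a.

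Most like Sprr2a were Mtch1 (r = 0.9982), Afap1l2 (0.9976), Pkd1 (0.9970), Col11a1 (0.9959) and Aoc3 (0.9956). Col11a1, a fibrillar collagen chain, was at 0.09 and 0 FPKM in WT sham, at 0.23 and 0.17 in WT MI and at 1.80 and 1.67 under the KO label. Aoc3, a vascular amine oxidase, was at 4.63 and 3.77, at 5.40 and 6.07, and at 14.91 and 13.45. Mtch1, a mitochondrial outer membrane protein, was at 67.32 to 73.66 in the WT libraries and at 102.95 and 103.59 under the label. None of the 5 genes nearest to Sprr2a is among the 5 nearest to Sprr1a, and r between the 2 members was 0.7972.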

How the data were processed

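RNA-seq of 6 mouse heart libraries was used, grouped by their labels into 3 groups of 2. The authors made poly(A) libraries from TRIzol RNA, aligned the reads to mm9 (BWA and Bowtie2 in the submitters' processing notes) and deposited FPKM values, 1 for each NCBI gene number. The annotation and strand setting behind the deposited FPKM values are not given in the sources used here. FPKM is relative to the library, so a few abundant genes shift all others. The members and lists were chosen with earlier results of these data known.

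Missing genes were set to 0. Symbols came from the GRCm38.p6 RefSeq table, used for names only (17390 of 17441 matched). The main fit was limma 3.58.1 in R 4.3.3 with trend on log2(FPKM + 1), over 13120 genes at 1 FPKM or more in at least 2 libraries, all 3 groups in 1 fit without covariates, with Benjamini-Hochberg adjustment over all tested genes and a threshold of 0.05. The members were not tested. With 2 libraries a group, an exact permutation test of 1 gene could not pass 0.05. The study gives 2 samples a group, and p-values measure the spread between these samples, which may be technical.

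Depth was estimated from the spacing of low FPKM values of 3660 genes with 1 annotated transcript. At the estimate, 75.0% to 79.9% of low values lay within 0.15 of a whole fragment, so whole counts were not rebuilt, no count test was run, and fragment numbers in the text are estimates only. Transcript stretches, motifs and coding sequences were read from the mm9 genome with its GENCODE annotation.

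Named genes were the members, every Sprr gene with a value, Card9, up to 4 genes of highest mean FPKM a list, up to 2 called genes of largest difference per list, direction and comparison, the 5 genes nearest in pattern to each member, and neighbours at the locus. Others (Elf3, Ehf, Pou2f3, Gap43, Sox11, Tgm1, Tgm3, Krt8, Msln, Upk3b, Pdgfra, Flg and the genes not listed) were chosen after their values were seen or for their role. Alternatives were other pseudocounts, filters, scalings, a fit without trend, a fit of only the groups compared, a replicate block and leaving out each library.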

Additional observations from a re-analysis of the deposited data

How the results depend on the processing

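The Sprr1a and Sprr2a differences kept their direction in every alternative run. Moves beyond the spread of replicates came from the pseudocount and scaling. With 0.1 in place of 1, Sprr2a differed by 2.48 (WT MI against WT sham), 4.03 (Card9 KO MI against WT MI) and 6.51 (Card9 KO MI against WT sham) and Sprr1a by 7.86 in the last. With 5, Sprr2a differed by 0.23, 1.95 and 2.18, and Sprr1a by 5.18 in the first and 6.87 in the last. With upper-quartile scaling, Sprr2a differed by 3.17 in Card9 KO MI against WT MI and Sprr1a by 7.35 in Card9 KO MI against WT sham. Leaving out a library gave 5.70 to 6.15, 1.48 to 1.91 and 7.39 to 7.85 for Sprr1a, and 0.63 to 1.02, 3.18 to 3.33 and 3.89 to 4.28 for Sprr2a.

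In Card9 KO MI against WT MI, 184 genes were called (107 higher, 77 lower), with 284 at a mean FPKM of at least 5, 12 without a filter, 58 without trend, 80 and 312 with pseudocounts of 0.1 and 5, and 9 to 110 when a library was left out (fewest without WT MI replicate 1). Of the fixed lists 5 genes were called there (0 higher), with 8 at a mean FPKM of at least 5 (2 higher), 3 without a filter (0 higher), 3 and 10 with the 2 pseudocounts (0 and 3 higher), 8 with quantile normalization (2 higher), and 2 to 4 when a library was left out. In WT MI against WT sham, 4869 genes were called, and 2939 to 3884 when a library was left out (fewest without WT MI replicate 1), and of the lists 62 and 45 to 56. In Card9 KO MI against WT sham it was 6444 and 4496 to 5506, and of the lists 62 and 56 to 59. Scaling moved the share of higher calls. In WT MI against WT sham 74.7% of calls were higher as deposited (3637 to 1232), 51.0% with upper-quartile scaling (2452 to 2353) and 48.3% with quantile normalization (2291 to 2450). In Card9 KO MI against WT sham it was 70.9%, 49.0% and 45.1%, and in Card9 KO MI against WT MI 58.2%, 46.4% and 52.7%. Quantile normalization reversed Actc1 (0.49) and Tnnt2 (0.09) in Card9 KO MI against WT sham. The cause was not tested.

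Replicate numbers did not pair the samples: deviations of same-numbered libraries from their group means correlated at 0.00244, 0.0204 and -0.00828. With the replicate block, 71 genes were called in Card9 KO MI against WT MI, 4651 in WT MI against WT sham and 6241 in Card9 KO MI against WT sham. Of the 165 calls of named genes, the alternatives kept 1901 of their values past the threshold and lost 212, with direction kept, and 2 reversed. The depth of 3003291 to 4257997 estimated fragments a library limits what can be said of Sprr2a, Sprr2f and Sprr2h in sham and WT MI. It also limits Sprr2g, which was at 3.66 FPKM or under in every library.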
